A study of Mus musculus with 9 samples.

Results

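The 27 genes described here encode enzymes of cholesterol synthesis, the proteins that control the transcription factor SREBP2, and a few proteins of sterol transport, storage and receptor turnover. They were chosen by their known roles, with earlier results of these data in view, and were found by symbol among the 55704 genes of the deposited table, and all 27 had a mean level of at least 0.1 FPKM (fragments scaled by exon length and library size), so none was lost to the filter on low values. NSCs (neural stem cells) had been isolated from the subventricular zone of C57BL/6 mice aged 8 to 9 weeks, with 2 female and 2 male mice pooled per isolation, and had been grown for at least 3 passages in medium with bFGF and EGF. They were then plated as an adherent layer on poly-L-ornithine and laminin for 16 to 18 h. The 3 bFGF/EGF-treated libraries were made from cells at day 0, with a B27 supplement that lacks vitamin A. The 3 bFGF/BMP4-treated libraries came from cells kept for 6 days with bFGF and BMP4, and the 3 BMP4-treated libraries from cells kept for 6 days with BMP4 alone, both in medium for which the labels name B27. Each factor was used at 20 ng/mL. Treatment, days in culture and the B27 supplement therefore changed together between the bFGF/EGF group and each other group and cannot be told apart, while the labels give bFGF as the one difference between bFGF/BMP4 and BMP4. No label says whether the 3 libraries of a group came from separate isolations, so p-values measure the spread between these libraries, which may be technical.

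Cells make cholesterol from acetyl-CoA by way of mevalonate, farnesyl diphosphate, squalene and lanosterol. When membrane sterol is low, SCAP escorts SREBP2 from the endoplasmic reticulum to the Golgi, where it is cut, and the released part enters the nucleus and turns on nearly every enzyme gene of the pathway. When sterol is plentiful, INSIG1 or INSIG2 holds SCAP back, and oxysterols activate LXR, whose targets export sterol and remove sterol receptors from the membrane. In the adult brain most cholesterol is made locally, largely by glia, and dividing cells need it for new membrane.

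SREBP2 binds the sterol regulatory element, often next to the factors NF-Y, which reads CCAAT, and SP1, which reads GGGCGG. These letters were looked up on both strands of the 300 bases around each member's start site (250 upstream and 50 downstream, GENCODE start sites on GRCm39, the build of the files). The classical element, spelled TCACNCCAC, was present in 1 of 27 members and in 1.34% of 21770 promoters, and with 1 mismatch allowed it was present in 13 members and in 24.5% of promoters. CCAAT was present in 20 members (74.1%, against 39.9% of promoters) and GGGCGG in 21 (77.8%, against 42.5%). In Hmgcs1 the matches to the 3 motifs did not overlap. A match is a description of the letters and not a binding site, and no match says nothing about the factor. The exact match lay in Hmgcs1, whose mean level was the highest of all members in each group, so its upstream stretch is shown, at chr13:120151732-120151914 on the plus strand of GRCm39, ending where the gene's outermost annotated transcript starts. Capitals mark the element and the CCAAT letters, which are read here on the other strand as ATTGG.
Hmgcs1 promoter: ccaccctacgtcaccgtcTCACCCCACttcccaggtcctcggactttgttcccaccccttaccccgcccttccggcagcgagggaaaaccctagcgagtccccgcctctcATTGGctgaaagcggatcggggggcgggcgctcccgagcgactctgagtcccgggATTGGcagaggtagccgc

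Members with a near match upstream of the start site are shown, from the regulators Srebf2 and Insig1 to the enzymes and Mylip. Fdft1, Msmo1 and Insig2 had theirs downstream, and that of Stard4 is not shown. Acat2 and Hsd17b7 had 2 matches each, of which the one nearest to the start site is shown. A link between these letters and the RNA levels was not tested. Each shown match is written on the strand that reads like the element, with the 9 matched letters in capitals and 10 bases on either side.
Srebf2, chr15:82031298-82031326, plus strand: tgacgcaccaTCACCCCATgagccgcttc
Insig1, chr5:28276146-28276174, minus strand: tgacgtatgcACACGCCACcgggggggtg
Acat2, chr17:13179647-13179675, plus strand: gctatggcctCCACGCCACgcctcctcac
Sqle, chr15:59186673-59186701, plus strand: ggccccgcgcCCACCCCACgcacccgccc
Cyp51, chr5:4154787-4154815, minus strand: ccagctctgcTGACGCCACataggccgag
Hsd17b7, chr1:169796853-169796881, plus strand: ctcggcatctTCTCTCCACgcccagaccg
Fdps, chr3:89009447-89009475, plus strand: gcgcggaccaTCAGCCCACtaggcggtcg
Mylip, chr13:45543080-45543108, plus strand: aggcggggctTCAGCCCACcgagactggg

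The libraries held 15899290 to 17434389 fragments on genes. Pearson's correlation of log2 values across genes was 0.950 to 0.964 within groups and 0.810 to 0.915 between groups, and genes are not independent replicates. Most markers of the labelled cell type were present but differed in direction. Of 10 NSC markers, 4 were higher and 5 lower in bFGF/BMP4 than in bFGF/EGF, and 4 higher and 3 lower in BMP4. These counts come from the limma test described below. Over all genes tested, 25% were higher and 23.6% lower in bFGF/BMP4, and 29.6% higher and 25.3% lower in BMP4. Sox2 had means of 167, 137 and 137 FPKM in bFGF/EGF, bFGF/BMP4 and BMP4, while Nes, which encodes Nestin, stood at 151, 3.55 and 15.8, and the proliferation gene Mki67 at 34.1, 10.3 and 1.72. Pax6 (1.53, 4.80 and 7.16 FPKM), Vcam1 (0.932, 5.31 and 8.44) and Slc1a3 (73.6, 130 and 113) were higher in both 6-day groups than in bFGF/EGF, and Prom1 was at 0.66, 0.151 and 2.49 FPKM. Markers of microglia and of vascular and mural cells were near 0, with Itgam and Cldn5 at 0 in every library. The summed level of 8 astrocyte markers was 178 to 243 FPKM in bFGF/EGF, 675 to 772 in bFGF/BMP4 and 3691 to 4573 in BMP4. Most of the BMP4 sum was Gfap, with means of 0.0926, 19.4 and 2566 FPKM in the same order. Most of the bFGF/EGF sum was Aldh1l1, which was lower in both 6-day groups (135, 24.2 and 58.1 FPKM). Gjb6 was at 0 in bFGF/EGF. Of these 8, 7 were higher and 1 lower in each 6-day group than in bFGF/EGF, against the shares over all genes given above. Between BMP4 and bFGF/BMP4, 5 were higher and 2, Slc1a2 and Gjb6, lower in BMP4 (all genes 12.2% and 8.89%). The sum of 10 oligodendrocyte lineage markers was 1582 to 2292, 1358 to 1829 and 276 to 471 FPKM in bFGF/EGF, bFGF/BMP4 and BMP4. Most of it was Olig1 and Olig2, with Sox10 at 0 in both 6-day groups. The sum of 5 ependymal markers was 6.71 to 11.3, 10.7 to 11.4 and 55.1 to 64.7 FPKM in the same order. Most of it was Foxj1 (means 8.26, 10.0 and 55.1 FPKM). Rsph1 had means of 0.532, 0.993 and 2.72 FPKM, while Dnah11 and Ccdc153 were under 1 FPKM in every library and Tmem212 was at 0. In BMP4, all 3 that passed the filter on low values, Foxj1, Rsph1 and Ccdc153, were higher than in either other group. Over all genes the shares higher in BMP4 were 29.6% against bFGF/EGF and 12.2% against bFGF/BMP4. The part of these markers in the results below was not tested, and in bulk RNA fewer cells of a type and less RNA per cell cannot be told apart.

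Most enzymes of cholesterol synthesis were lower in bFGF/BMP4-treated NSCs than in bFGF/EGF-treated NSCs. Of the 4 SREBP2 regulators, Insig2 was higher and 3 did not pass the threshold. Of the 19 enzymes from acetyl-CoA to cholesterol, 13 (68.4%) were lower and 0 higher at an adjusted p of at most 0.05 in limma (a linear model fitted across all genes on log2(FPKM + 0.1), with Benjamini-Hochberg adjustment over the 20207 genes tested). Over all 27 members, 14 were lower (51.9%, against 23.6% of all genes tested) and 4 higher (14.8%, against 25% of all genes). With a fold of at least 2 required as well, 5 were lower (18.5%, against 14.1%) and 3 higher (11.1%, against 16.5%). The median log2 fold change was -0.57 over the members and 0.06 over all genes tested.

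In BMP4-treated NSCs enzymes were called in both directions. Against bFGF/EGF, 9 of the 19 enzymes were lower and 2, Hsd17b7 and Sc5d, were higher. Over all members, 10 were lower (37%, against 25.3% of all genes) and 6 higher (22.2%, against 29.6%), and with a fold of at least 2 there were 7 lower (25.9%, against 15.4%) and 4 higher (14.8%, against 21.3%). The median log2 fold change was -0.36 over the members and 0.10 over all genes. Both comparisons share the bFGF/EGF libraries and are therefore not independent.

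BMP4 and bFGF/BMP4 were compared directly, which also tests whether their differences from bFGF/EGF are unequal. In BMP4, 4 members were higher, namely Hmgcs1, Hsd17b7, Insig2 and Soat1 (14.8%, against 12.2% of all genes), and 2 were lower, Lbr and Mylip (7.41%, against 8.89%). With a fold of at least 2 there were 3 higher (11.1%, against 8.41%) and 1 lower (3.7%, against 5.14%). These shares were close to those over all genes. For 21 of 27 members the comparison between both 6-day groups did not pass the threshold, which does not show that their levels were equal.

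**Figure D1:**
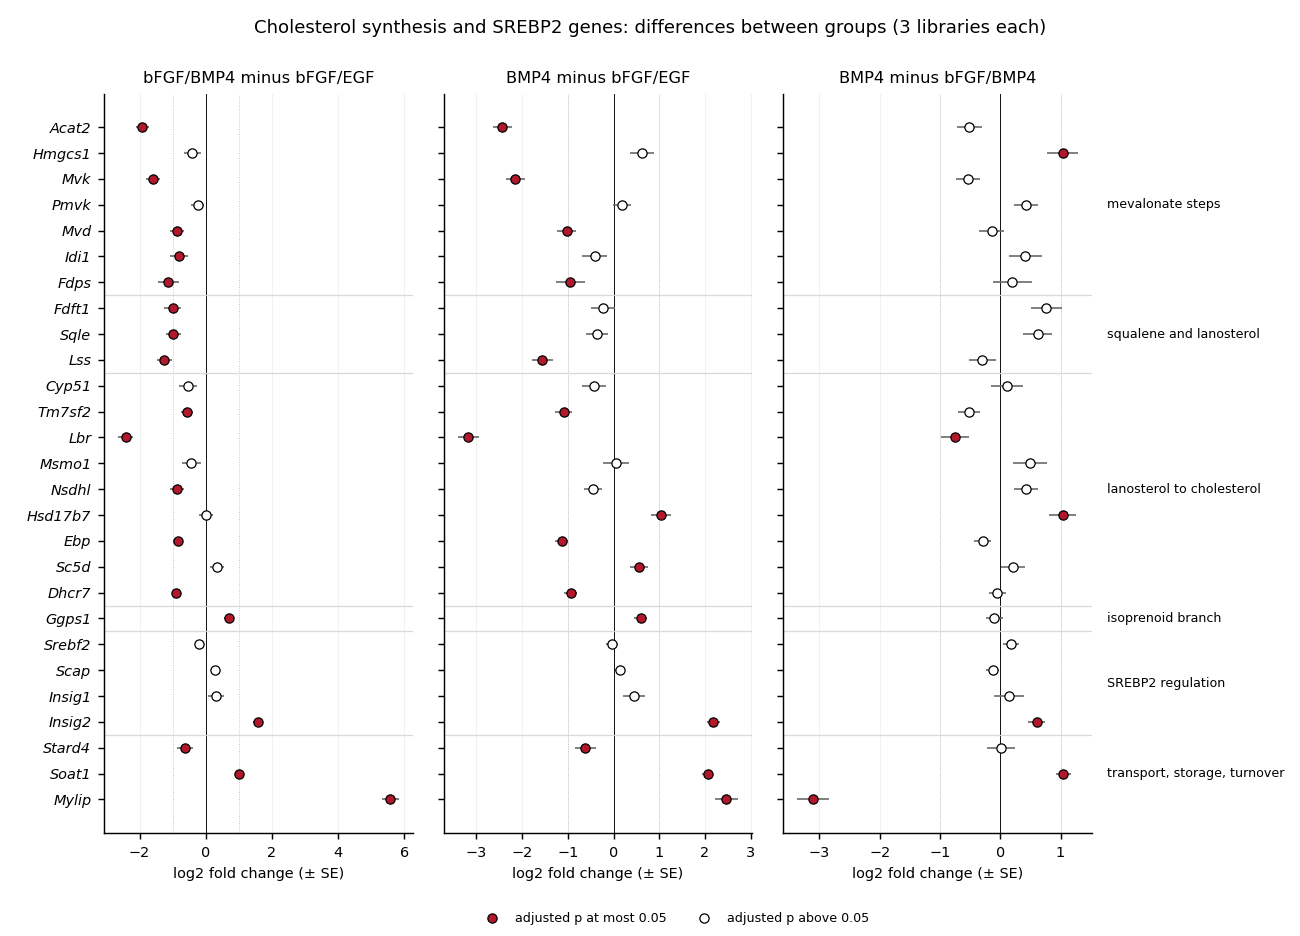
Log2 fold changes of the 27 members in the 3 comparisons between groups (horizontal axes, each with its own range, error bars ± SE of the limma fit, 3 libraries per group). Red points passed an adjusted p of at most 0.05, open points did not, and dotted lines mark a fold of 2. In the left panel the points of 13 enzymes are red and left of 0, and Mylip lies far to the right at 5.57.

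The first steps of the pathway, from acetyl-CoA to mevalonate and on to farnesyl diphosphate, held the largest falls among the enzymes apart from Lbr. Acat2, the cytosolic thiolase that joins acetyl-CoA units, stood at 73.2, 93.3 and 79.3 FPKM in bFGF/EGF, 16.4, 26.3 and 23.2 in bFGF/BMP4, and 12.01, 18.9 and 15.0 in BMP4. No library of either 6-day group reached the lowest bFGF/EGF library. Acat2 fell by 1.92 ± 0.21 (SE) on the log2 scale in bFGF/BMP4 (limma adjusted p = 4.55e-05) and by 2.43 ± 0.21 in BMP4 (adjusted p = 6.5e-06), to levels 3.78-fold and 5.39-fold lower. Mvk, mevalonate kinase, stood at 32.8, 40.7 and 36.4 FPKM in bFGF/EGF, 10.1, 13.5 and 12.4 in bFGF/BMP4, and 5.92, 10.6 and 8.75 in BMP4. It also separated bFGF/EGF from both other groups, and fell by 1.60 ± 0.20 (limma adjusted p = 0.00013) and 2.14 ± 0.20 (adjusted p = 1.35e-05). The related gene Acat3, whose transcript is 97.7% identical to Acat2 over 55.4% of its length, stood at 0.188 to 1.78 FPKM.

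Hmgcs1, the synthase that makes HMG-CoA, passed the threshold in neither comparison with bFGF/EGF. It stood at 135, 135 and 217 FPKM in bFGF/EGF, 89.0, 140 and 137 in bFGF/BMP4, and 198, 313 and 236 in BMP4. Every BMP4 library was above every bFGF/BMP4 library, while both groups overlapped bFGF/EGF. Hmgcs1 rose by 1.03 ± 0.26 on the log2 scale in BMP4 against bFGF/BMP4 (limma adjusted p = 0.0165), while its differences from bFGF/EGF missed the threshold (-0.41 ± 0.26, adjusted p = 0.222, and 0.63 ± 0.26, adjusted p = 0.0618). The call was lost without bFGF/BMP4 replicate 1 (0.82, adjusted p = 0.0597) or without BMP4 replicate 2 (0.85, adjusted p = 0.0595). Per unit of length, Hmgcs1 made up 17.9% to 26.8% of the summed FPKM of the 19 enzymes in bFGF/EGF, 27.3% to 28.2% in bFGF/BMP4 and 37.9% to 40.9% in BMP4. The ratio of Hmgcs1 to Acat2 was 2.01 ± 0.662 (SD, n = 3) in bFGF/EGF against 5.56 ± 0.306 in bFGF/BMP4 and 16.3 ± 0.451 in BMP4, with no overlap between the groups. This ratio follows from the values given above for both genes and is no separate evidence.

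The later mevalonate steps moved less. Mvd, the decarboxylase that gives isopentenyl diphosphate, stood at 27.02, 42.1 and 43.6 FPKM in bFGF/EGF, 17.5, 22.6 and 20.2 in bFGF/BMP4, and 14.2, 20.2 and 20.5 in BMP4. It fell by 0.88 ± 0.21 in bFGF/BMP4 (limma adjusted p = 0.00616) and by 1.02 ± 0.21 in BMP4 (adjusted p = 0.00219), without overlap between bFGF/EGF and either group. Idi1, which interconverts both isoprene units, passed the threshold only in bFGF/BMP4 against bFGF/EGF (32.1 ± 7.57 to 18.5 ± 5.94 FPKM, SD, n = 3, log2 fold change -0.82 ± 0.28, limma adjusted p = 0.0322), and that call was lost without bFGF/EGF replicate 1 or 3 or without bFGF/BMP4 replicate 1. Pmvk, phosphomevalonate kinase, had means of 23.5, 19.6 and 27.3 FPKM in bFGF/EGF, bFGF/BMP4 and BMP4 and passed the threshold in no comparison.

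Fdps, the synthase of farnesyl diphosphate, was listed far below the enzymes before and after it, and its value is uncertain. It stood at 1.29, 1.14 and 1.40 FPKM in bFGF/EGF, 0.281, 0.836 and 0.582 in bFGF/BMP4, and 0.600, 0.690 and 0.562 in BMP4, from 19 to 104 fragments per library. The genome holds processed copies of its transcript. Gm3571, 98.9% identical to Fdps over 81.3% of its length, stood at 28.9 ± 5.28 FPKM (SD, n = 3) in bFGF/EGF against 6.10 ± 1.96 in bFGF/BMP4 and 7.02 ± 2.80 in BMP4, and Gm5873, 96.7% identical over 81.1%, at 4.80 ± 1.46, 0.879 ± 0.331 and 1.30 ± 0.391. Both copies thus exceeded the parent gene in every group mean, and how fragments were divided among these copies was not tested. Fdps fell by 1.14 ± 0.32 in bFGF/BMP4 (limma adjusted p = 0.0148) and by 0.94 ± 0.32 in BMP4 (adjusted p = 0.0312), and Gm3571 fell by 2.27 ± 0.33 (adjusted p = 0.000317) and 2.10 ± 0.33 (adjusted p = 0.000412). The Fdps call in BMP4 was lost when any bFGF/EGF library or BMP4 replicate 1 or 3 was left out.

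**Figure D2:**
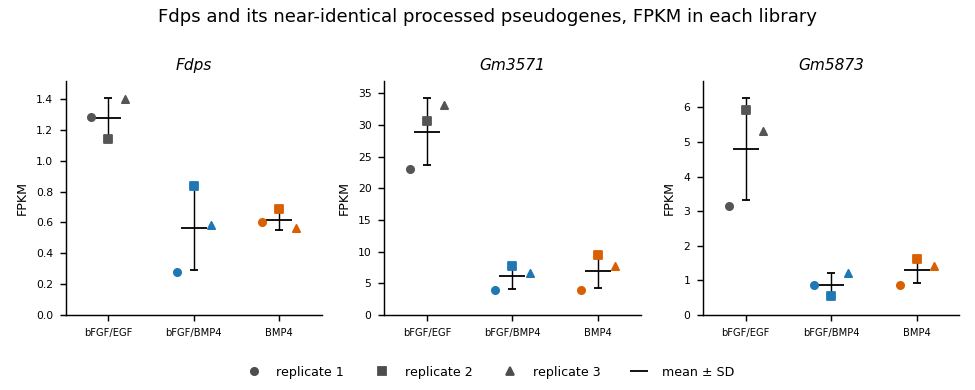
FPKM of Fdps and of its near-identical processed pseudogenes Gm3571 and Gm5873 in each library (vertical axes from 0, each with its own range, symbols for replicates, bars for the mean ± SD of 3). All 3 were highest in bFGF/EGF, and Gm3571 stood at 23.0 to 33.2 FPKM there against 1.14 to 1.40 for Fdps.

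The 3 enzymes from farnesyl diphosphate to lanosterol were all lower in bFGF/BMP4 than in bFGF/EGF, and Lss, the cyclase that forms lanosterol, also passed the threshold in BMP4. Lss stood at 15.5, 21.0 and 22.9 FPKM in bFGF/EGF, 5.84, 10.1 and 9.03 in bFGF/BMP4, and 5.78, 6.50 and 7.64 in BMP4. It separated bFGF/EGF from both groups and fell by 1.26 ± 0.22 (limma adjusted p = 0.00102) and 1.55 ± 0.22 (adjusted p = 0.000207). Sqle, squalene epoxidase and a rate-limiting step, had 57.8 ± 3.55 FPKM (SD, n = 3) in bFGF/EGF against 30.3 ± 9.34 in bFGF/BMP4 and 45.5 ± 8.88 in BMP4, with a fall of 0.98 ± 0.23 in bFGF/BMP4 (limma adjusted p = 0.00599) and a difference of -0.36 ± 0.23 in BMP4 (adjusted p = 0.218), where all libraries were nonetheless below those of bFGF/EGF. Fdft1, squalene synthase, had 42.3 ± 5.71, 21.6 ± 5.81 and 36.9 ± 11.8 FPKM, with a fall of 1.00 ± 0.26 in bFGF/BMP4 (limma adjusted p = 0.00942) and -0.23 ± 0.26 in BMP4 (adjusted p = 0.469). Between BMP4 and bFGF/BMP4 neither Sqle (0.62 ± 0.23, limma adjusted p = 0.0943) nor Fdft1 (0.76 ± 0.26, adjusted p = 0.065) passed the threshold, so an unequal response to both treatments was not shown for them. On the opposite strand Ctsb shares 24.8% of the Fdft1 exon length and rose from 25.8 to 138 and 206 FPKM, and since the strand setting of the counting is not given in the sources used here, reads of both genes cannot be told apart there.

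From lanosterol to cholesterol the pathway holds 9 members, of which 5 were lower in bFGF/BMP4 than in bFGF/EGF and 0 higher (all genes 23.6% and 25%), and 4 lower and 2 higher in BMP4 (25.3% and 29.6%). Lbr, the lamin B receptor, is an inner nuclear membrane protein that also acts as a sterol reductase, and it had the largest fall of all members. It stood at 17.3, 14.8 and 11.3 FPKM in bFGF/EGF, 1.80, 3.22 and 2.94 in bFGF/BMP4, and 1.35, 1.60 and 1.55 in BMP4. The 3 groups did not overlap. Lbr fell by 2.42 ± 0.23 on the log2 scale in bFGF/BMP4 (limma adjusted p = 2.07e-05) and by 3.17 ± 0.23 in BMP4 (adjusted p = 2.45e-06), that is 5.36-fold and 9.01-fold. The difference between both 6-day groups was -0.75 ± 0.23 (limma adjusted p = 0.0454), and this call was lost without either of bFGF/BMP4 replicates 2 and 3 or any BMP4 library. Tm7sf2, which catalyses the same reduction, stood at 11.1, 14.6 and 13.6 FPKM in bFGF/EGF, 8.51, 9.09 and 8.65 in bFGF/BMP4, and 4.55, 7.85 and 6.25 in BMP4, again without overlap. It fell by 0.57 ± 0.19 in bFGF/BMP4 (limma adjusted p = 0.0297, a call lost without bFGF/EGF replicate 2 or 3 or any bFGF/BMP4 library) and by 1.09 ± 0.19 in BMP4 (adjusted p = 0.00074). The ratio of Lbr to Tm7sf2 went from 0.829 to 1.56 over the bFGF/EGF libraries to 0.212 to 0.354 in bFGF/BMP4 and 0.203 to 0.296 in BMP4, so Tm7sf2 was the more abundant of both reductases in every 6-day library.

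Ebp, a sterol isomerase near the end of the pathway, stood at 9.19, 11.3 and 10.4 FPKM in bFGF/EGF, 5.47, 5.67 and 5.92 in bFGF/BMP4, and 3.97, 5.45 and 4.59 in BMP4. Its libraries lay close together within each group, and it fell by 0.84 ± 0.14 (limma adjusted p = 0.000807) and 1.13 ± 0.14 (adjusted p = 9.12e-05). Dhcr7, the reductase that gives cholesterol from 7-dehydrocholesterol, fell by almost the same amount in both groups, from 30.1 ± 3.91 FPKM (SD, n = 3) to 16.3 ± 2.46 and 15.6 ± 1.40 (log2 fold changes -0.89 ± 0.15, limma adjusted p = 0.000686, and -0.94 ± 0.15, adjusted p = 0.000393). Nsdhl, a decarboxylating dehydrogenase of the demethylation complex, fell in bFGF/BMP4 (32.1 ± 4.76 to 17.6 ± 3.10 FPKM, -0.87 ± 0.20, limma adjusted p = 0.00524) and had 23.9 ± 5.69 FPKM in BMP4 (-0.44 ± 0.20, adjusted p = 0.0881). Cyp51, the lanosterol demethylase, and Msmo1, a methylsterol oxidase, passed the threshold in no comparison. Their means were 80.2, 56.4 and 61.2 FPKM for Cyp51 and 28.2, 21.6 and 30.5 FPKM for Msmo1.

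Hsd17b7 and Sc5d rose in BMP4 against the run of the pathway. Hsd17b7, the keto-sterol reductase of the demethylation complex, stood at 10.1, 11.1 and 11.8 FPKM in bFGF/EGF, 7.22, 13.8 and 13.4 in bFGF/BMP4, and 21.1, 25.1 and 22.1 in BMP4. All BMP4 libraries were above all others, and bFGF/BMP4 overlapped bFGF/EGF. Hsd17b7 rose by 1.04 ± 0.22 in BMP4 against bFGF/EGF (limma adjusted p = 0.00264) and by 1.04 ± 0.22 against bFGF/BMP4 (adjusted p = 0.00763). Sc5d, the sterol desaturase before Dhcr7, rose in BMP4 from 19.4 ± 0.792 to 29.0 ± 6.42 FPKM (SD, n = 3, 0.55 ± 0.20, limma adjusted p = 0.0407), a call that was lost without any 1 bFGF/EGF library and without BMP4 replicate 2 or 3. Nsdhl and Hsd17b7, which act in the same complex, thus had log2 fold changes of -0.44 and 1.04 in BMP4 against bFGF/EGF.

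**Figure D3:**
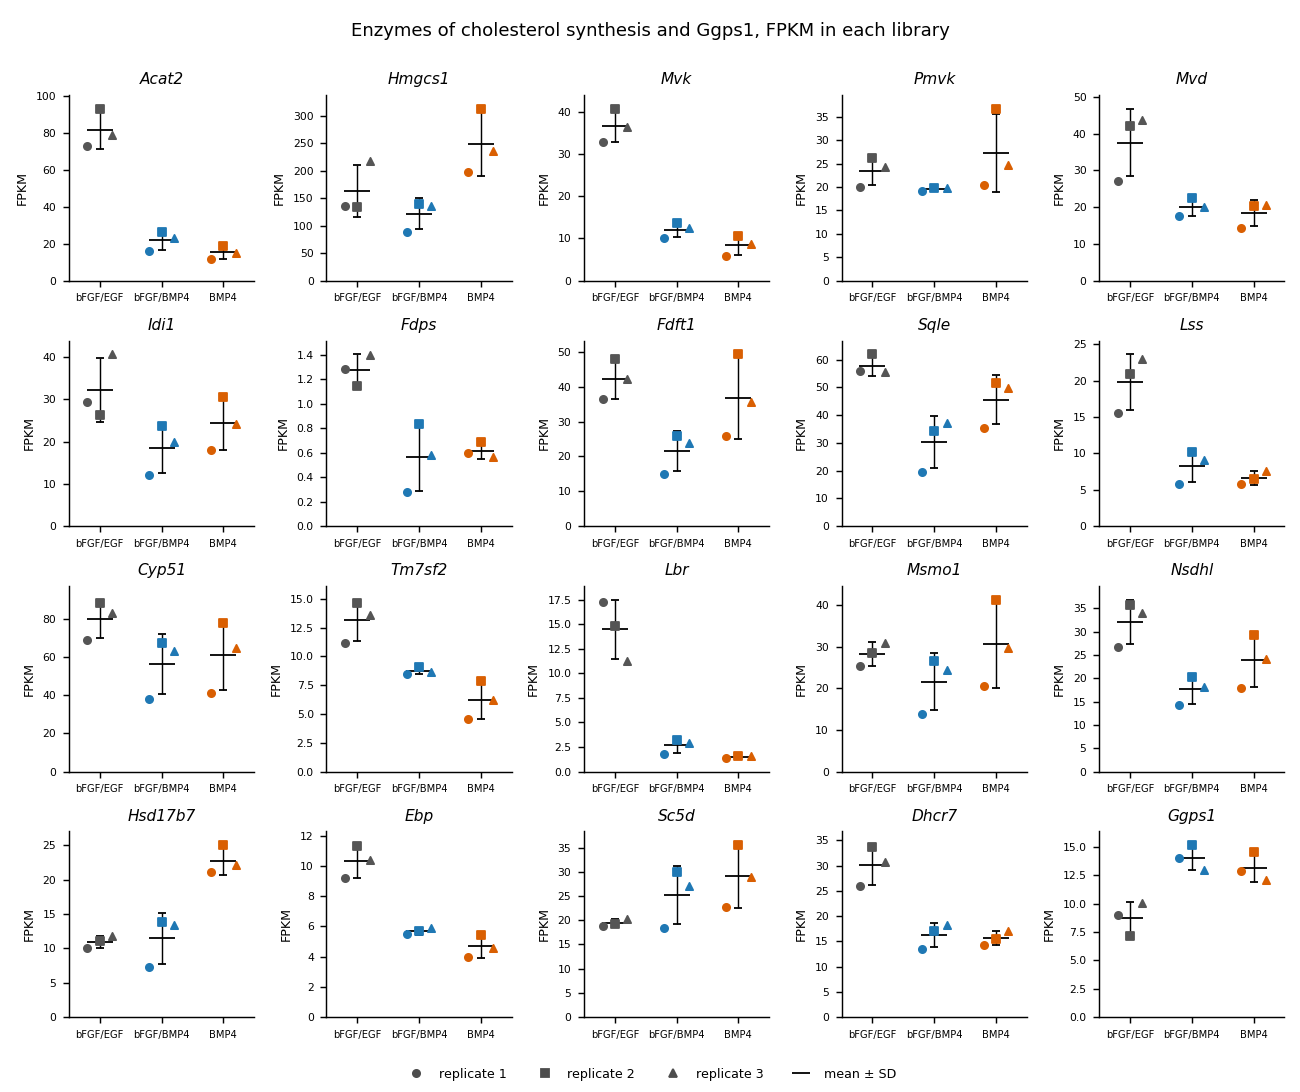
FPKM of the 19 enzymes in pathway order, and of Ggps1, in each library (vertical axes from 0, each with its own range, circles, squares and triangles for replicates 1 to 3, bars for the mean ± SD). For 14 of the 19 enzymes the mean was highest in bFGF/EGF, and for Hmgcs1, Pmvk, Msmo1, Hsd17b7 and Sc5d in BMP4.

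Summed over the 19 enzymes, the level was 641 to 810 FPKM in bFGF/EGF, 326 to 510 in bFGF/BMP4 and 484 to 777 in BMP4, so BMP4 overlapped both other groups. Without Hmgcs1 the sums were 505 to 618, 237 to 370 and 286 to 464 FPKM, and bFGF/EGF then stood above all 6 other libraries. The group with the highest mean was bFGF/EGF for 14 enzymes, BMP4 for 5 and bFGF/BMP4 for 0, and the lowest mean lay in bFGF/BMP4 for 9, BMP4 for 8 and bFGF/EGF for 2.

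Within groups, the enzymes moved together from library to library. All 19 were lowest in bFGF/BMP4 replicate 1, where 38% of all genes tested were lowest, and 18, all but Fdps, were lowest in BMP4 replicate 1, where 29.7% of all genes were. In bFGF/EGF replicate 1, 14 of the 19 were lowest, against 26.2% of all genes. The median deviation of the enzymes from their group mean was -0.42 on the log2 scale in bFGF/BMP4 replicate 1, -0.34 in BMP4 replicate 1 and -0.16 in bFGF/EGF replicate 1, while the median deviation over all genes tested was -0.0034, 0.00075 and 0. The highest library was replicate 2 for 16 enzymes in bFGF/BMP4 and for 16 in BMP4. Insig1, itself a target of SREBP2, shared the pattern, with 70.99, 74.8 and 77.1 FPKM in the replicates numbered 1 against 81.5 to 134 in the other libraries. Srebf2 was lowest in replicate 1 of bFGF/BMP4 and highest in replicate 1 of BMP4. The enzymes share a known regulator and are not independent measurements, and what set these libraries apart was not tested.

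Leaving out replicate 1 of every group, an alternative added after the data were seen, gave 11 members lower and 5 higher in bFGF/BMP4 against bFGF/EGF, and 8 lower and 6 higher in BMP4 against bFGF/EGF. Idi1, Fdps and Stard4 lost their calls in bFGF/BMP4, and Fdps, Stard4 and Ggps1 lost theirs in BMP4. Between BMP4 and bFGF/BMP4, 2 members were then higher and 2 lower, and the calls of Hmgcs1 (0.97, limma adjusted p = 0.0814) and Insig2 (0.59, adjusted p = 0.0731) were lost.

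**Figure D4:**
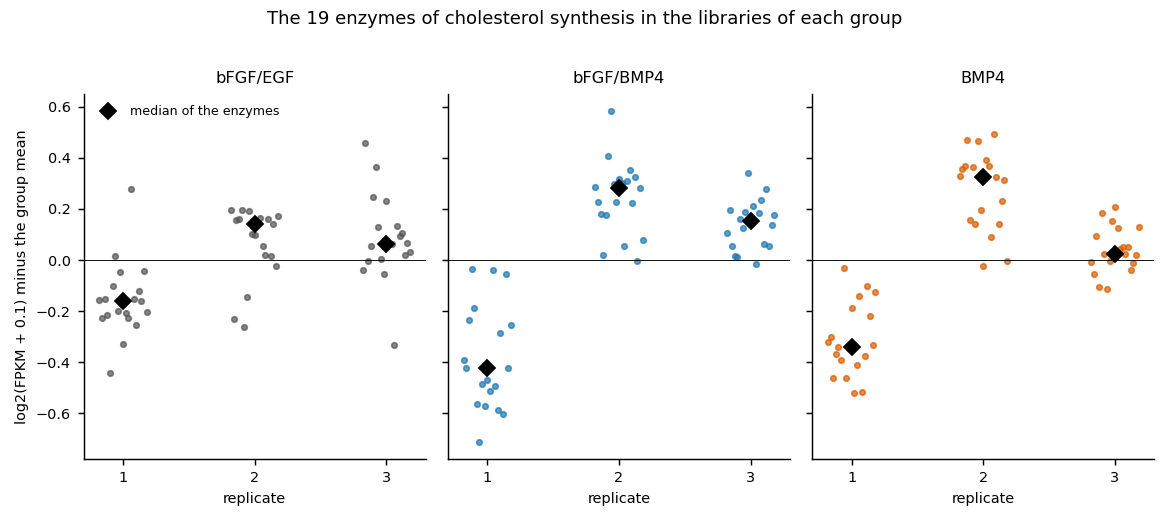
Deviation of each of the 19 enzymes from its own group mean, on the scale of log2(FPKM + 0.1), in the libraries of bFGF/EGF, bFGF/BMP4 and BMP4 (coloured points, 1 per enzyme, black diamonds for their median, spread sideways for visibility). In bFGF/BMP4 replicate 1 every enzyme lies below 0, with a median of -0.42, and in BMP4 replicate 2 the median is 0.33.

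The SREBP2 gene and its escort passed the threshold in no comparison. Srebf2 stood at 80.1, 88.3 and 71.1 FPKM in bFGF/EGF, 64.3, 69.2 and 73.8 in bFGF/BMP4, and 85.9, 67.8 and 82.3 in BMP4, with all groups overlapping. Its differences were -0.20 ± 0.13 in bFGF/BMP4 (limma adjusted p = 0.235) and -0.02 ± 0.13 in BMP4 (adjusted p = 0.9). Scap stood at 20.9, 24.8 and 20.9 FPKM in bFGF/EGF, 26.04, 25.7 and 28.4 in bFGF/BMP4, and 24.1, 23.8 and 25.5 in BMP4, and its difference of 0.27 ± 0.11 in bFGF/BMP4 missed the threshold (limma adjusted p = 0.0608). These are RNA levels, and the cutting of SREBP2 protein was not measured. Shisa8 shares 7.34% of the Srebf2 exon length on the opposite strand and reached 121 FPKM.

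The INSIG genes differed in their calls. Insig1 stood at 70.99, 89.995 and 81.5 FPKM in bFGF/EGF, 74.8, 128 and 102 in bFGF/BMP4, and 77.1, 134 and 128 in BMP4. All groups overlapped, and no comparison passed the threshold (0.30 ± 0.25 in bFGF/BMP4, limma adjusted p = 0.346, and 0.45 ± 0.25 in BMP4, adjusted p = 0.149). Insig2 stood at 5.79, 5.39 and 5.12 FPKM in bFGF/EGF, 14.2, 18.5 and 16.4 in bFGF/BMP4, and 22.0, 29.2 and 23.8 in BMP4. Its groups did not overlap in any pair. Insig2 rose by 1.57 ± 0.14 in bFGF/BMP4 (limma adjusted p = 1.42e-05) and by 2.18 ± 0.14 in BMP4 (adjusted p = 1.21e-06), which is 2.97-fold and 4.52-fold, and it was higher in BMP4 than in bFGF/BMP4 by 0.61 ± 0.14 (adjusted p = 0.0123). Per unit of length, the ratio of Insig1 to Insig2 was 12.3 to 16.7 in the bFGF/EGF libraries, 5.27 to 6.90 in bFGF/BMP4 and 3.50 to 5.37 in BMP4.

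**Figure D5:**
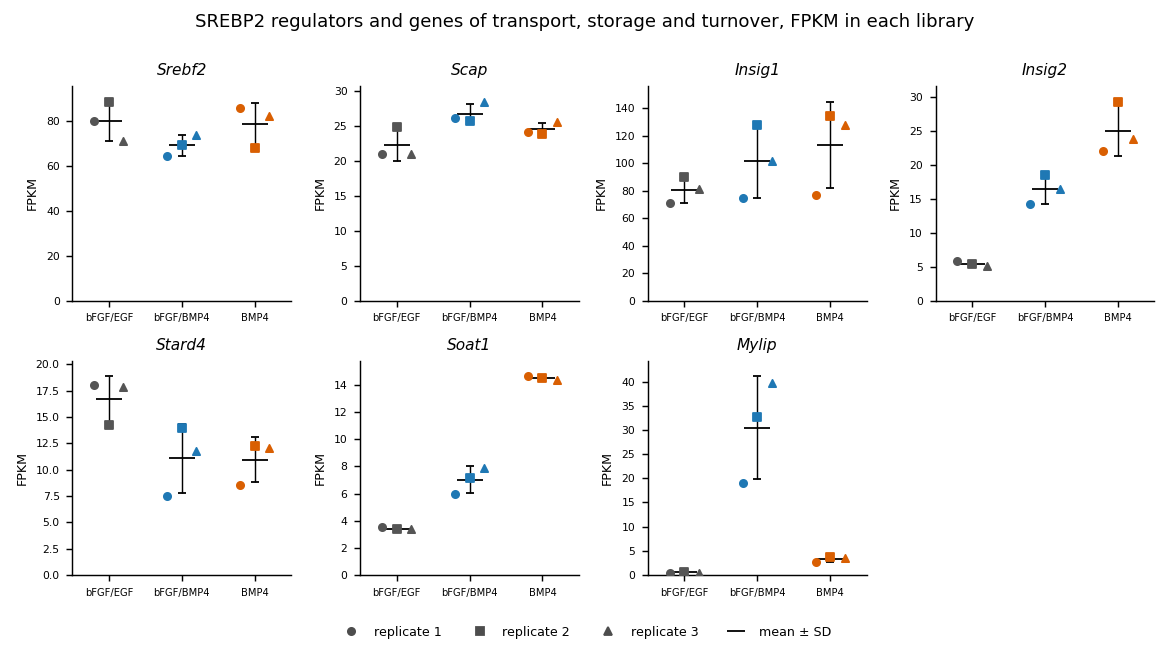
FPKM of the SREBP2 regulators Srebf2, Scap, Insig1 and Insig2 and of Stard4, Soat1 and Mylip in each library (vertical axes from 0, each with its own range, symbols for replicates, bars for the mean ± SD of 3). Srebf2 overlaps in all groups, Insig2 and Soat1 step up from bFGF/EGF through bFGF/BMP4 to BMP4, and Mylip is highest in bFGF/BMP4 at 18.98 to 39.8 FPKM.

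Mylip, also called Idol, is a ubiquitin ligase made under LXR that sends lipoprotein receptors to degradation, and it had the largest change of all members. It stood at 0.455, 0.606 and 0.490 FPKM in bFGF/EGF, 18.98, 32.7 and 39.8 in bFGF/BMP4, and 2.69, 3.69 and 3.60 in BMP4. The 3 groups were far apart, with bFGF/BMP4 highest, and the bFGF/EGF values rested on 25 to 31 fragments per library. Mylip rose by 5.57 ± 0.26 on the log2 scale in bFGF/BMP4 (limma adjusted p = 2.24e-07) and by 2.47 ± 0.26 in BMP4 (adjusted p = 2.65e-05), and it was lower in BMP4 than in bFGF/BMP4 by a log2 fold change of -3.11 ± 0.26 (adjusted p = 2.97e-05).

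Soat1 esterifies cholesterol for storage in droplets. It stood at 3.50, 3.36 and 3.36 FPKM in bFGF/EGF, 5.99, 7.18 and 7.91 in bFGF/BMP4, and 14.6, 14.5 and 14.4 in BMP4. The groups were separate, and the SD over the BMP4 libraries was 0.135 FPKM. Soat1 rose by 1.01 ± 0.12 in bFGF/BMP4 (limma adjusted p = 9.86e-05) and by 2.06 ± 0.12 in BMP4 (adjusted p = 7.54e-07), and the step between both was 1.04 ± 0.12 (adjusted p = 0.000241). Stard4, a sterol carrier that is itself under SREBP2, went the other way, from 16.7 ± 2.14 FPKM (SD, n = 3) to 11.1 ± 3.28 and 10.9 ± 2.10, but both calls (-0.62 ± 0.23 in each, limma adjusted p = 0.0473 and 0.0453) were fragile. The call in bFGF/BMP4 was lost without bFGF/EGF replicate 1 or 3 or bFGF/BMP4 replicate 1 or 3, and that in BMP4 without bFGF/EGF replicate 1 or 3 or any BMP4 library. Ggps1, which draws farnesyl diphosphate off into geranylgeranyl diphosphate for protein prenylation, rose in both groups, from 8.75 ± 1.44 FPKM to 14.1 ± 1.10 and 13.2 ± 1.29 (0.69 ± 0.14, limma adjusted p = 0.00276, and 0.59 ± 0.14, adjusted p = 0.00547).

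Genes around the pathway, from 6 lists of 73 genes by role, are given by the same test. Over all genes tested, 25% were higher and 23.6% lower in bFGF/BMP4 than in bFGF/EGF, and 29.6% higher and 25.3% lower in BMP4, with median log2 fold changes of 0.06 and 0.10. Of 10 genes of SREBP processing, 7 were higher and 3 lower in bFGF/BMP4 than in bFGF/EGF, and the same numbers held in BMP4, with list medians of 0.45 and 0.55. Lpcat3, which makes polyunsaturated phospholipids under LXR, rose from 15.2 ± 2.57 FPKM to 27.2 ± 1.94 and 41.9 ± 4.57, and Erlin1, which binds cholesterol in the endoplasmic reticulum, fell from 6.73 ± 1.03 to 3.05 ± 0.26 and 2.16 ± 0.14 (SD, n = 3). Of 12 genes coupled to SREBP or to the enzymes, 7 were lower and 2 higher in bFGF/BMP4, and 5 lower and 4 higher in BMP4, with list medians of -0.53 and -0.28. The falls included Acly, which supplies cytosolic acetyl-CoA, from 102 ± 8.89 FPKM to 38.7 ± 2.93 and 40.0 ± 3.09 (log2 fold changes -1.40 ± 0.12 and -1.35 ± 0.12), and Tmem97, a sterol-regulated membrane protein, from 48.3 ± 8.02 to 16.1 ± 2.27 and 11.3 ± 1.79.

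In the lists of sterol transport and LXR and of sterol esters and oxysterols, more genes were higher than lower in both 6-day groups than in bFGF/EGF. Of 19 genes of sterol transport and LXR, 12 were higher and 4 lower in bFGF/BMP4, and 11 higher and 4 lower in BMP4, against 25% higher and 23.6% lower, and 29.6% and 25.3%, over all genes. The list medians were 0.51 and 0.50 on the log2 scale. Abca1, the LXR target that exports cholesterol to lipoprotein, rose from 1.92 ± 0.706 FPKM to 91.2 ± 10.6 in bFGF/BMP4 (5.55 ± 0.24, limma adjusted p = 1.32e-07) and 61.9 ± 11.5 in BMP4 (4.98 ± 0.24, adjusted p = 1.83e-07). Scarb1, the receptor that takes up sterol from high-density lipoprotein, fell from 17.3 ± 2.21 to 2.93 ± 0.711 and 1.20 ± 0.12 FPKM. In BMP4 against bFGF/BMP4, Abca1 had -0.57 ± 0.24 (limma adjusted p = 0.128), beside -3.11 for Mylip, also an LXR target. Of 8 genes of sterol esters and oxysterols, 4 passed the filter on low values and 3 were higher in both groups. They included Cyp46a1, the neuronal hydroxylase that turns cholesterol into a form that leaves the brain, from 1.96 ± 0.331 FPKM to 22.8 ± 2.48 and 28.5 ± 2.52, and Cyp7b1, which clears oxysterols, from 0.21 ± 0.0494 to 2.87 ± 0.906 and 3.01 ± 0.366. The summed level of 9 neuron and neuroblast markers was 84.9 to 107 FPKM in bFGF/EGF, 54.9 to 60.8 in bFGF/BMP4 and 151 to 221 in BMP4, and its part in the Cyp46a1 values was not tested. Most of the BMP4 sum was Tubb3, with a mean of 145 FPKM against 20.3 in bFGF/EGF. Dcx was also higher in BMP4 (0.187 to 0.904 FPKM, with 1.99 in BMP4 replicate 1). Map2 (56.2 to 34.1 FPKM), Syt1 (3.83 to 0.371) and Elavl4 (3.49 to 0.589) were lower in BMP4. Of the 8 neuron and neuroblast markers tested, 2 were thus higher and 3 lower than in bFGF/EGF (all genes 29.6% and 25.3%). Against bFGF/BMP4, 3 were higher and 1 lower in BMP4 (all genes 12.2% and 8.89%). The median log2 fold change of the 8 of these markers that passed the filter was -0.35 in BMP4 against bFGF/EGF.

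Of 13 genes that use isoprenoids, 4 were higher and 3 lower in bFGF/BMP4, and 5 higher and 2 lower in BMP4, where the shares over all genes were 25% and 23.6%, and 29.6% and 25.3%. The isoprenoid counts in bFGF/BMP4 were close to these shares. Rabggta, a subunit of the enzyme that prenylates Rab proteins, rose in BMP4 from 5.20 ± 0.991 to 12.3 ± 1.69 FPKM, and Pdss1, which makes the ubiquinone tail, fell from 5.79 ± 0.705 to 3.03 ± 0.47 and 1.89 ± 0.388. Of 11 genes of fatty acid synthesis, the branch under SREBP1, 3 were higher and 2 lower in bFGF/BMP4, and 5 higher and 4 lower in BMP4, with list medians of -0.17 and 0.41. Scd1, a desaturase, rose from 85.4 ± 10.2 to 140 ± 13.6 and 212 ± 20.0 FPKM, and Elovl6, an elongase, fell from 23.0 ± 7.31 to 12.8 ± 1.27 and 6.93 ± 1.45. In BMP4 against bFGF/BMP4, 3 of these 11 were higher and 4 lower, and of the 12 SREBP-coupled genes 3 were higher and 0 lower, against 12.2% and 8.89% of all genes.

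Shared or overlapping exons limit a few other members. Akap9 shares 21.1% of the Cyp51 exon length, Cetn2 8.97% of Nsdhl and Tcp1 5.48% of Acat2 on the opposite strand, and Vps51 shares 10.8% of Tm7sf2 on the same strand, with highest levels of 5.40, 44.9, 88.9 and 11.7 FPKM. How much of these genes' reads entered the members' values was not tested.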

How the data were processed

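Bulk RNA-seq of 9 libraries in 3 groups was used. The authors deposited FPKM values for 55704 genes; per the submitters' processing notes, reads were cleaned with fastp 0.19.7, aligned to mm39 with HISAT2 2.0.5 and counted with featureCounts 1.5.0-p3. The annotation release, strand setting and library scaling are not given in the sources used here. FPKM values are gene-length scaled and long genes carry more fragments at the same level. Whole fragment numbers were rebuilt for all 30860 genes above 0 (tolerance 0.02) and gave the depths. Fragment numbers limit precision by counting error only.

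Genes with a mean of at least 0.1 FPKM were tested with limma 3.58.1 (R 4.3.3, trend) on log2(FPKM + 0.1), which understates changes of low genes, with all libraries in one fit and Benjamini-Hochberg adjustment. Positions and sequences came from GRCm39 with GENCODE vM39, and copies from blastn 2.17.0 (at least 90% identity over 30% of a transcript). Scripts (Python 3.11.15) were tested on simulated data. All 27 members are named; those called with a fold of at least 2, and 4 regulators, are given per library; from each of 6 other lists the 2 genes with the largest called change and a mean of at least 1 FPKM are named. The members and lists were chosen with earlier results of these data known. Alternatives changed the pseudocount, filter, scaling, tool, block, groups, fold or libraries. No other per-sample column was present.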

Additional observations from a re-analysis of the deposited data

How the results depend on the processing

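The 40 member calls (adjusted p of at most 0.05 in limma) were each tried under the alternatives. Of 358 pairs of a call and an alternative that left out no library, 341 stayed past the threshold, 17 missed it and 0 changed direction; of 280 pairs with libraries left out, 238 stayed, 42 missed it and 0 changed direction. The count of members lower in bFGF/BMP4 than in bFGF/EGF, 14, became 5 with a fold of at least 2, and was 11 to 13 with a library left out. In BMP4 against bFGF/BMP4, the 4 higher became 7 with a replicate block and 2 without replicate 1 of every group (2 to 5 over all left-out libraries). The 2 lower became 1 with a pseudocount of 1, 1 without the filter on low values, 5 on the TPM scale, 4 with a replicate block, 1 with only the groups compared, 1 with a fold of at least 2, and 1 to 3 with a library left out. No label says whether the replicate numbers pair the samples. Same-numbered libraries correlated at -0.0839 to 0.125 in their deviations from the group means over all genes, and differently numbered ones at -0.154 to 0.0814. With 3 libraries per group, these values cannot decide whether the samples were paired. Lbr in this comparison missed the threshold under a pseudocount of 1, no filter, the replicate block and the fit of only these groups. Members with the sterol regulatory element went from 1 to 13 with 1 mismatch allowed. Quantile normalization moved the median of all genes in BMP4 against bFGF/EGF from 0.10 to -0.03. The identity of paired members' proteins was not run. The cause of these changes was not tested. Depth limits Fdps, with 19 to 104 fragments, and Mylip in bFGF/EGF, with 25 to 31.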
